A study of Mus musculus with 9 samples.

Results

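The transcripts described here belong to the BMP, TGF-beta and activin pathways and were measured in dorsal pancreatic epithelium of mouse embryos. The genes were chosen by symbol: the BMP, GDF, TGF-beta and activin ligand genes and Nodal, the receptor genes whose symbols begin with Bmpr or Acvr together with Tgfbr1 to Tgfbr3, the Smad genes, Id1 to Id4, and Nog, Chrd, Grem1, Fst, Lefty1 and Bambi. They number 58 of the 18541 genes in the deposited table, each with 1 probe. By role they comprise 28 ligands, 12 receptors, 7 antagonists or modulators, 7 Smads and 4 Id genes. The study asked which genes depend on Sox9 and Pdx1 together, transcription factors of pancreatic progenitors.

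The 3 genotypes were compared at e12.5, on 3 arrays each and RNA pooled from 3 dorsal pancreata per array. The Sox9 heterozygotes (Sox9fl/+; Foxa3-Cre) had 1 floxed Sox9 allele removed by Cre recombinase, which a Foxa3 transgene expressed. Foxa3 is known to be active in endoderm outside the pancreas as well, so recombination need not be limited to the pancreas. The Pdx1 heterozygotes (Pdx1-/+) carried a LacZ knock-in in 1 Pdx1 allele, and Cre is not named in their label. The double heterozygotes (Sox9fl/+; Foxa3-Cre; Pdx1-/+) carried all of these alleles and were littermates of the others. Against the Pdx1 heterozygotes, the Sox9 deletion and the transgene therefore cannot be told apart. Each array is a separate pool of embryos, and wild-type embryos were not analysed here. Groups are named by their labels throughout.

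Ligands of this family are secreted dimers that bring together type I and type II receptor kinases at the cell surface. BMP-type receptors pass the signal to Smad1, Smad5 and Smad9, whereas TGF-beta, activin and Nodal receptors pass it to Smad2 and Smad3. Both kinds of Smad enter the nucleus with Smad4, and Smad6 and Smad7 inhibit the relay. Id genes, which encode inhibitors of basic helix-loop-helix transcription factors, are widely used as readouts of BMP signalling. In the embryonic foregut, BMP signals from neighbouring mesoderm favour liver over ventral pancreas, and activin-like signals from the notochord permit dorsal pancreas formation. Follistatin and TGF-beta signalling are known to shift the balance of endocrine and exocrine differentiation.

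The 9 arrays had near-equal median intensities of 347 to 353, and the probes ranged from 32 to 444942 in normalized intensity. Over all genes, replicate 3 of the double heterozygotes deviated most from its group. The lowest correlation of any 2 arrays across genes, 0.980, was between it and replicate 1 of the Sox9 heterozygotes. Its log2 values deviated from their group means with an SD of 0.19, against 0.11 to 0.17 on the other arrays. Over the 58 pathway genes that SD was 0.18 on each of these 2 arrays, against 0.12 to 0.16 on the rest. The title of replicate 3 of the double heterozygotes names a replicate 4 beside replicate 3. Among the 58 pathway genes this replicate was the array farthest from the median of its group in 51.7%, against 50.3% of all genes. Differences that it moved by more than 1.5 times are also given without it for the genes whose intensities are listed.

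Pdx1 probe intensity was lower in all 3 Pdx1-heterozygous arrays than in any Sox9-heterozygous array, with a log2 difference of 0.40 ± 0.09 for Sox9 minus Pdx1 heterozygotes (SE, n = 3 per group; limma, adjusted p = 0.217). The double heterozygotes, which carry the same Pdx1 knock-in, were at 1203, 1143 and 1352. They lay above every Pdx1-heterozygous array (0.16 ± 0.09, limma, adjusted p = 0.397) and overlapped the Sox9 heterozygotes (-0.25 ± 0.09, limma, adjusted p = 0.139). The Sox9 probe went against the label: it was higher in the Sox9 heterozygotes than in the Pdx1 heterozygotes by 0.45 ± 0.11 (limma, adjusted p = 0.298). The double heterozygotes, which carry the Sox9 deletion too, lay above the Pdx1 heterozygotes by 0.57 ± 0.11 (limma, adjusted p = 0.108; FDR 2.19e-04 in the authors' deposited table), without overlap in either case. The position of either probe relative to the altered part of its gene was not known here, so neither probe checks the labels. Of the markers used to check the tissue, 12 of 12 epithelial and 16 of 20 mesenchymal genes were brighter than the lowest 20% of probes, the latter the share that all probes have by construction. Some mesenchymal genes were bright, with Vim at 63349 to 75025 and Pdgfrb at 12239 to 19381 over the 9 arrays, against array medians of 347 to 353. The other 4 of the 20 were dim. Mesenchymal transcripts were thus present beside the epithelial ones. In bulk RNA, fewer cells of a type and less RNA per cell cannot be told apart.

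None of the 58 pathway genes passed an adjusted p of 0.05 in any of the 3 comparisons. The test was limma's moderated test over all 18541 genes with Benjamini-Hochberg adjustment, fitted to the log2 intensities of the 9 arrays. It called 0.307% of all genes between double and Sox9 heterozygotes, 0.108% between double and Pdx1 heterozygotes and 0.232% between Sox9 and Pdx1 heterozygotes. The smallest adjusted p of any pathway gene from limma was 0.0869 for Inhbb (double minus Sox9), 0.145 for Acvr1b (double minus Pdx1) and 0.369 for Inhbb (Sox9 minus Pdx1). The median half-width of the 95% interval of a log2 difference was 0.25 over the 58 genes, with 3 arrays a group. That width relates to an unadjusted p of 0.05, and the adjusted threshold asked for more. Id2, at 0.77 ± 0.18 between double and Sox9 heterozygotes, was not called (limma, adjusted p = 0.0954). Differences below 0.25 were mostly not detectable, and the 0 calls do not exclude larger ones. The call depended on equal weights for the arrays: with limma's array weights, 11 pathway genes passed between double and Sox9 heterozygotes (Inhbb, Id2, Smad3, Acvr1b, Tgfb1, Gdf2, Acvr1 and Bmp1 higher, Bmpr2, Bmp2 and Fst lower). They are 19% of the 58, and that fit called the same 19% of all genes. It called 0 pathway genes between double and Pdx1 heterozygotes (against 0.0917% of all genes), and Inhbb and Fst between Sox9 and Pdx1 heterozygotes (3.45%, against 1.22%). The weights, whose estimation stopped before it converged, were 9.12 for replicate 2 of the Sox9 heterozygotes and 0.31 to 1.68 for the other arrays. That replicate was the brightest of its group for Bmp2 (193) and Fst (166). Their weighted differences between double and Sox9 heterozygotes were -0.82 and -0.78, against 0.03 and -0.16 without it at equal weights. For Fst between Sox9 and Pdx1 heterozygotes the values were 0.89 and 0.34. These calls thus rest largely on 1 array. Values below are log2 differences with the SE of the limma fit with equal weights, and no rise or fall is claimed from them.

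At an unadjusted p under 0.05, limma picked 14 pathway genes between double and Sox9 heterozygotes (24.1%, against 27.4% of all genes). Of these, 10 were higher in the double heterozygotes (17.2%, against 14.2%) and 4 lower (6.90%, against 13.2%). Between double and Pdx1 heterozygotes the same rule picked 10 of 58 (17.2%, against 16.1% of all genes), 5 in each direction, and between Sox9 and Pdx1 heterozygotes 3 of 58 (5.17%, against 6.29%). Groups that did not overlap were found for 19 pathway genes in the first comparison (32.8%, against 35.3% of all genes), for 16 in the second (27.6%, against 22.9%) and for 7 in the third (12.1%, against 12.6%). The shares over both directions lie near their backgrounds, while the lower genes of the first comparison are fewer than theirs and the difference was not tested. The median log2 difference of the 58 genes was 0.05 in each comparison of the double heterozygotes, beside 0.00 and 0.01 over all genes, and -0.03 for Sox9 minus Pdx1 heterozygotes, beside 0.00.

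**Figure D1:**
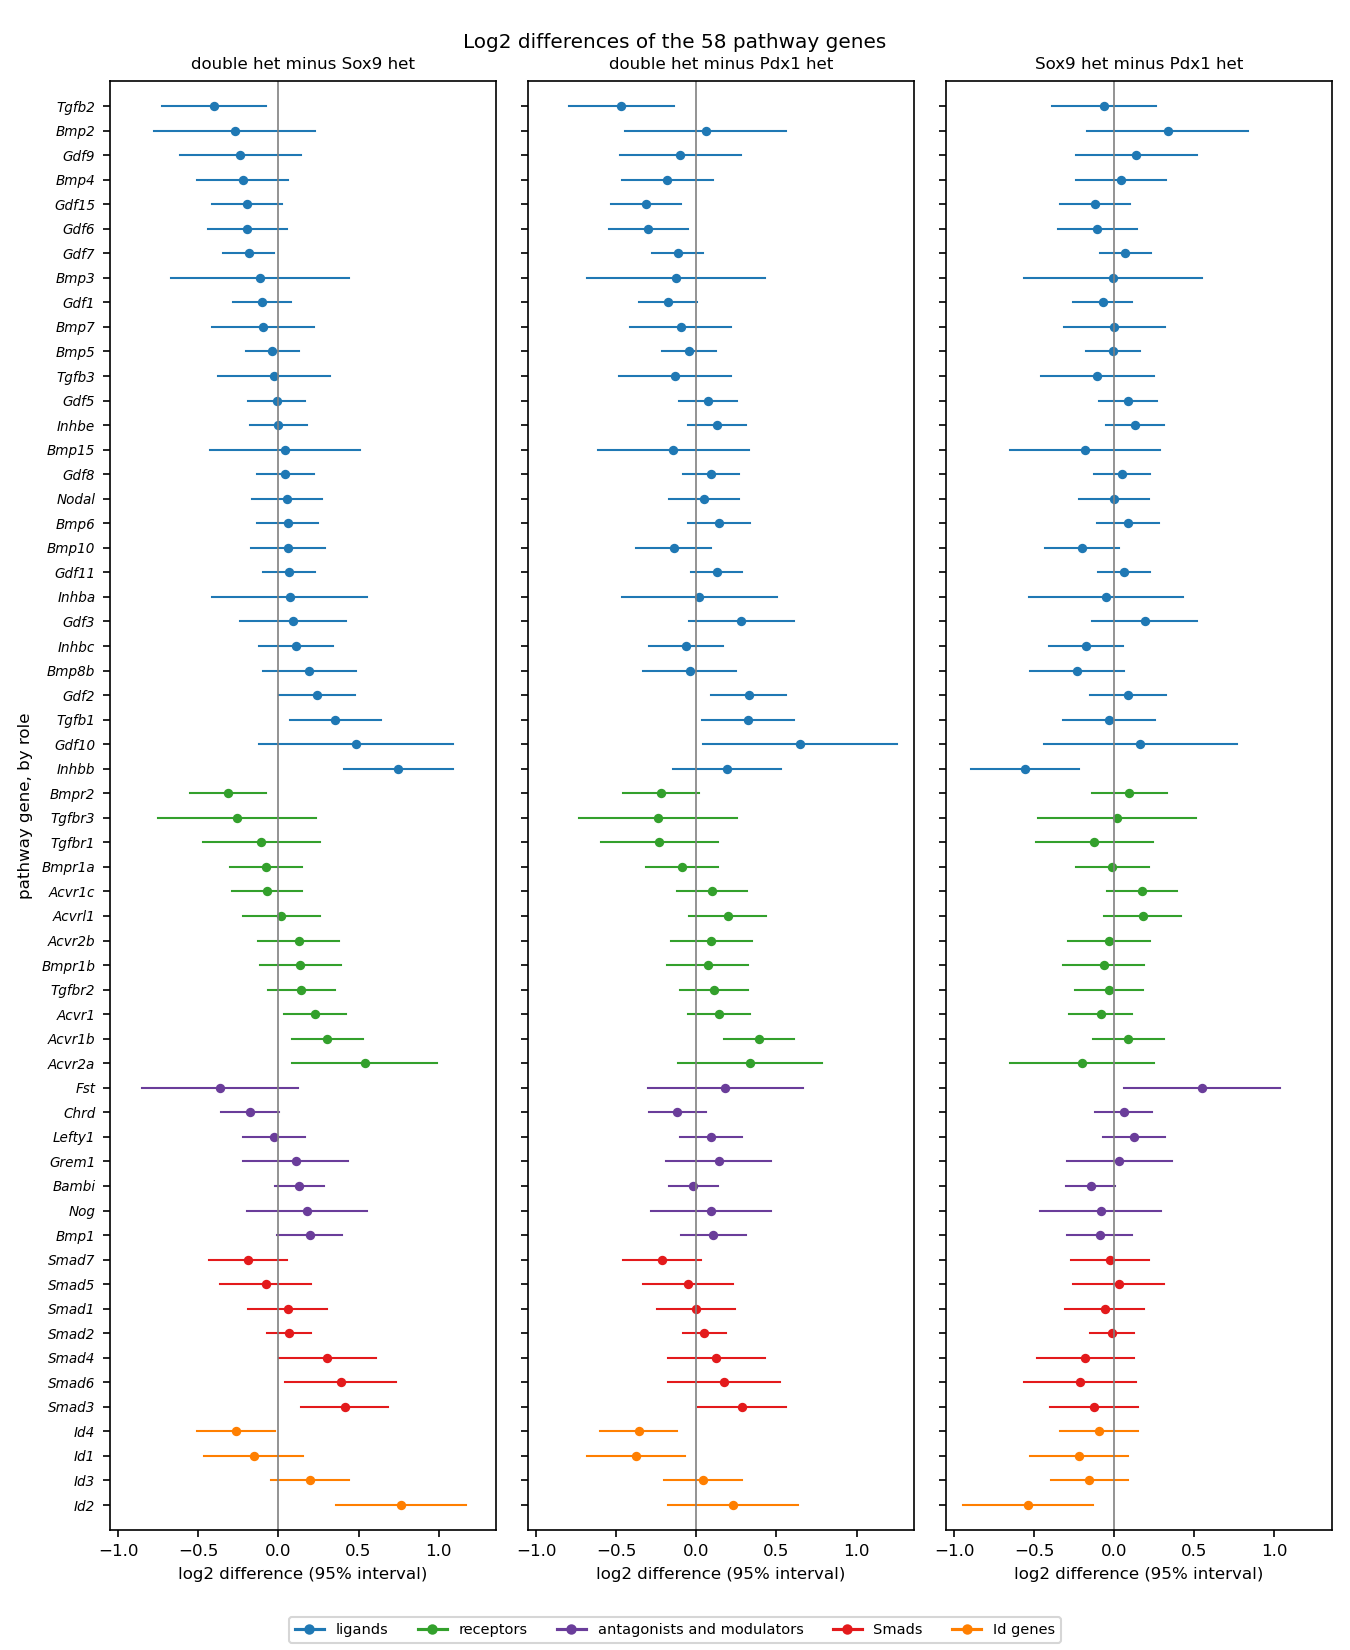
Log2 differences of normalized intensity for the 58 pathway genes in the 3 comparisons, ordered by role, with dots for the difference of group means (n = 3 arrays a group) and lines for the 95% interval of the limma fit. Inhbb and Id2 lie farthest to the right in the first panel, at 0.75 and 0.77, and farthest to the left in the third, at -0.56 and -0.54.

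By the FDR column of the authors' deposited table (false discovery rate), 10 of these genes lie under 0.05 against the Sox9 heterozygotes (17.2%, against 23.1% of all genes). Of them, 7 are higher (12.1%, against 12% of all genes) and 3 lower (5.17%, against 11.1%) in the double heterozygotes, by the authors' deposited table. Against the Pdx1 heterozygotes 13 lie under 0.05 in the authors' deposited table (22.4%, against 17.3%), 6 higher (10.3%, against 8.31%) and 7 lower (12.1%, against 8.94%). The log2 ratios of the authors' deposited table equal the differences used here within 4.27e-08. Whether the FDR was computed from the same values per array was not tested. Across the 18541 genes, the rank correlation between the limma p and the FDR of the authors' deposited table was 0.949 for the first comparison and 0.928 for the second, where genes are not independent replicates. All 57 and 20 genes that limma called in these comparisons were also under 0.05 in the authors' deposited table, which has 4292 and 3199 such genes. The computation of that FDR is not stated in the labels or headers. The members placed under 0.05 by that FDR, together with Id1 to Id4, are the ones described most fully below. This choice was made after the values were seen, because the rule based on limma's adjusted p selects no gene beyond the Id genes.

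**Figure D2:**
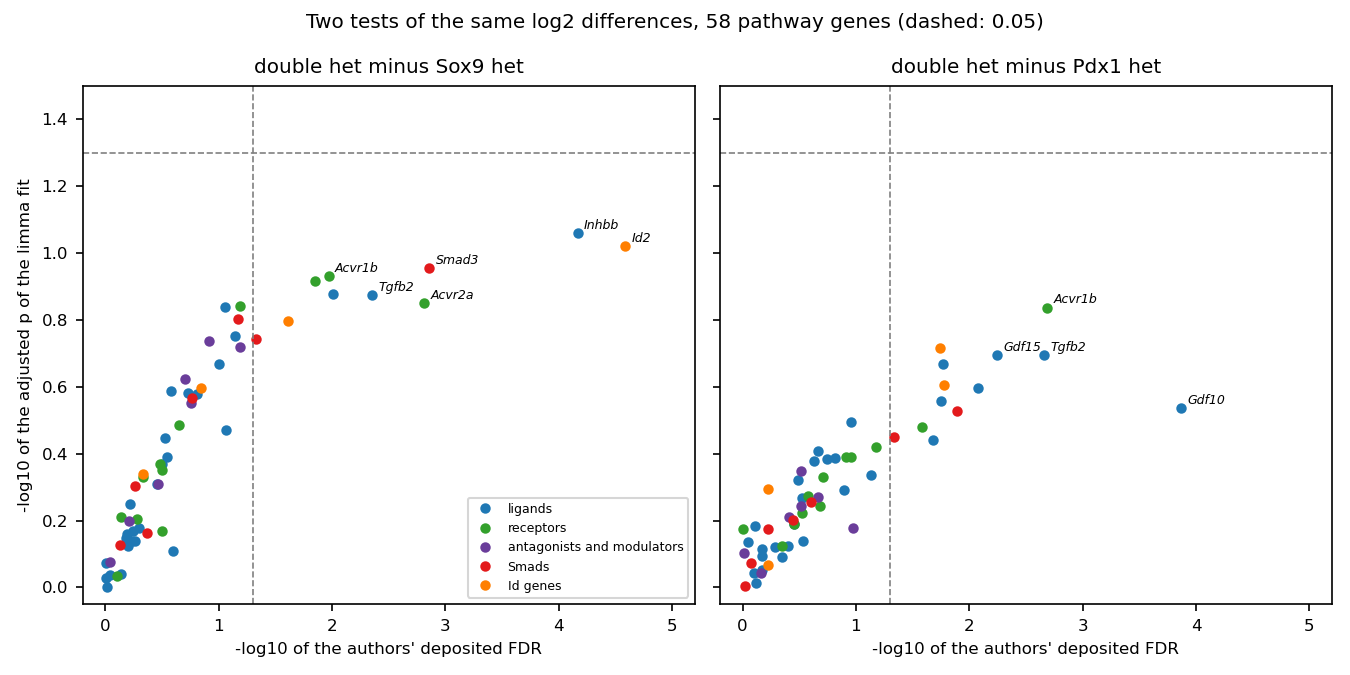
Each dot is 1 of the 58 pathway genes, with the -log10 of the FDR in the authors' deposited table on the x axis and the -log10 of the limma adjusted p on the y axis, for double minus Sox9 heterozygotes (left) and double minus Pdx1 heterozygotes (right). Dashed lines mark 0.05: 10 and 13 dots lie to the right of the vertical line and 0 above the horizontal one.

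Among the ligands, Inhbb, which encodes the beta-B subunit of activin B, was low in the Sox9 heterozygotes. Its normalized intensities were 206, 139 and 140 in the Sox9 heterozygotes, 217, 243 and 242 in the Pdx1 heterozygotes, and 288, 278 and 237 in the double heterozygotes. Every Sox9-heterozygous array lay below all 6 others, while the other 2 groups overlapped. The log2 difference was 0.75 ± 0.15 for double minus Sox9 (limma, adjusted p = 0.0869), 0.19 ± 0.15 for double minus Pdx1 and -0.56 ± 0.15 for Sox9 minus Pdx1 heterozygotes (limma, adjusted p = 0.369). The FDR of the first difference in the authors' deposited table is 6.78e-05. Without replicate 1 of the Sox9 heterozygotes, the brightest of its group, the first difference was 0.94 and passed (limma, adjusted p = 0.0308), which made Inhbb the 1 pathway gene called in that setting. Of the other activin subunit genes, Inhba, Inhbc and Inhbe differed by 0.07 ± 0.21, 0.11 ± 0.10 and -0.00 ± 0.08 between double and Sox9 heterozygotes. Without replicate 3 of the double heterozygotes, Inhba and Inhbe differed by -0.15 and -0.05.

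Tgfb2, a TGF-beta ligand gene, was lower in the double heterozygotes than in either other group. Its intensities were 2090, 1497 and 1485 in the Sox9, 1714, 1852 and 1677 in the Pdx1 and 1464, 1119 and 1228 in the double heterozygotes, without overlap between the double heterozygotes and the rest. The log2 differences were -0.40 ± 0.14 against the Sox9 (limma, adjusted p = 0.134) and -0.47 ± 0.14 against the Pdx1 heterozygotes (limma, adjusted p = 0.202), comparisons that share the double-heterozygous arrays. Without Sox9 replicate 1, the former difference was -0.24. Tgfb1, the best studied TGF-beta ligand gene, differed in the other direction, with intensities of 228, 217 and 239 in the Sox9, 247, 212 and 242 in the Pdx1 and 263, 261 and 361 in the double heterozygotes. Its differences of 0.36 ± 0.13 and 0.32 ± 0.13 became 0.20 and 0.17 without replicate 3 of the double heterozygotes, the array with 361. Tgfb3 differed by -0.03 ± 0.16 and -0.13 ± 0.16, or 0.09 and -0.02 without that array.

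Promoter sequences are shown for the 2 ligand genes with the clearest patterns, as the 250 bases upstream of the RefSeq start (GRCm38.p6), 5′ to 3′ on the gene's strand. Inhbb lies on the minus strand (chr1:119422249-119422498), as does Tgfb2 (chr1:186705990-186706239). Capitals mark the Smad box CAGAC (reverse GTCTG) and the GC element GGCGCC bound by BMP Smads, searched on both strands. 
Inhbb: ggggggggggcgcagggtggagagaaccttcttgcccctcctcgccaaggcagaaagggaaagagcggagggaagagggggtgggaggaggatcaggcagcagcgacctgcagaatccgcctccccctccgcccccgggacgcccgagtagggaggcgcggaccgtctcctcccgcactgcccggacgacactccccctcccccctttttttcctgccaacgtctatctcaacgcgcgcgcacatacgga
Tgfb2: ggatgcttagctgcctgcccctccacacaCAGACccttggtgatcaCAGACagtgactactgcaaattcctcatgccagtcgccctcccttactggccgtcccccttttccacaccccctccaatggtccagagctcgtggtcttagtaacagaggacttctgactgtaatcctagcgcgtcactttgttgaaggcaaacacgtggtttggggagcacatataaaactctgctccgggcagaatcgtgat
The Inhbb window holds neither motif, and the Tgfb2 window holds 2 copies of the Smad box, which start 221 and 204 bases upstream and do not overlap. The Smad box occurs in 42.2% of all 32851 windows of this length and GGCGCC in 9.59%. Of the 58 pathway genes, 39 have a window in the table, 16 of them with the Smad box (41.0%) and 8 with GGCGCC (20.5%). The SOX core ACAAT (reverse ATTGT) was found in neither window, and the homeodomain core TAAT (reverse ATTA) once in that of Tgfb2, against 27.7% and 54.9% of all windows. These matches describe the letters only.

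There were 5 GDF genes with an FDR under 0.05 against the Pdx1 heterozygotes in the authors' deposited table, and the probes of 2 of them, Gdf2 and Gdf3, are among the dimmest 20% of the array (mean intensity under 104). Gdf10, also called Bmp3b, was not among the dimmest 20%, but its signal was low too. Its intensities were 66, 101 and 109 in the Pdx1 and 110, 171 and 148 in the double heterozygotes, a difference of 0.65 ± 0.27 (limma, adjusted p = 0.291; FDR 1.35e-04 in the authors' deposited table). The highest Pdx1 and the lowest double-heterozygous array were 1 intensity unit apart. Without replicate 1 of the Pdx1 heterozygotes the difference was 0.42. The Sox9 heterozygotes, at 141, 99 and 73, overlapped both groups (0.48 ± 0.27, and 0.25 to 0.73 over the arrays left out). Gdf6, known from joint and skull patterning, gave 1654, 1904 and 1704 in the Pdx1 and 1399, 1482 and 1389 in the double heterozygotes (-0.30 ± 0.11). The Sox9 heterozygotes were at 1894, 1621 and 1404, from which the double heterozygotes differed by -0.19 ± 0.11, or -0.08 without Sox9 replicate 1. Gdf15, a stress-induced ligand gene, gave 297, 338 and 283 in the Pdx1 against 250, 269 and 219 in the double heterozygotes (-0.32 ± 0.10). The Sox9 heterozygotes were at 290, 282 and 271 (-0.20 ± 0.10, or -0.12 without replicate 3 of the double heterozygotes). Both were lower in each double-heterozygous array than in each Pdx1-heterozygous one. Gdf2 was at 71, 71 and 64 in the Sox9, 64, 66 and 64 in the Pdx1 and 96, 75 and 74 in the double heterozygotes (0.24 ± 0.10 and 0.33 ± 0.10). Gdf3 was at 113, 77 and 85, at 77, 81 and 80 and at 86, 113 and 92 in the same order (0.09 ± 0.15 and 0.28 ± 0.15). Both are close to the lower end of the array's range. Without replicate 1 of the double heterozygotes, the Gdf2 differences were 0.12 and 0.20. The second Gdf3 difference was 0.17 without replicate 2, and the first ranged from -0.02 to 0.25 over the arrays left out.

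The BMP ligand genes varied less between groups than their intervals could resolve. Bmp7, an epithelial BMP gene, ranged from 10249 to 12919 in the Sox9, from 10261 to 12659 in the Pdx1 and from 9026 to 12583 in the double heterozygotes. Its log2 difference was -0.10 (95% interval -0.41 to 0.22) against the Sox9 heterozygotes, and the value and interval against the Pdx1 heterozygotes were the same to 2 decimals. Without replicate 1 of the double heterozygotes both were 0.04. Bmp4, a mesenchymal BMP gene, differed by -0.22 (-0.51 to 0.06) and -0.18 (-0.46 to 0.10). Leaving out 1 array at a time gave -0.34 (without Sox9 replicate 3) to -0.10 (without Sox9 replicate 1) for the former and -0.26 to -0.10 for the latter. Bmp2 differed by -0.27 ± 0.22 against the Sox9 heterozygotes, of which replicate 2 was at 193 and the others at 101 and 103. Without replicate 2 of the Sox9 heterozygotes the difference was 0.03. Bmp3, Bmp5, Bmp6, Bmp8b, Bmp10 and Bmp15 lay between -0.14 and 0.19 in both comparisons of the double heterozygotes, and the probes of Bmp6, Bmp10 and Bmp15 were among the dimmest 20%. The remaining ligands, Gdf1, Gdf5, Gdf7, Gdf8 (myostatin), Gdf9, Gdf11 and Nodal, lay between -0.24 and 0.13.

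Among the 12 receptor genes, Acvr1b, which encodes the type I activin receptor ALK4, was higher in every double-heterozygous array than in any other. Its intensities were 93, 102 and 108 in the Sox9, 84, 97 and 105 in the Pdx1 and 122, 120 and 132 in the double heterozygotes. The log2 differences were 0.31 ± 0.10 (limma, adjusted p = 0.117) and 0.39 ± 0.10 (limma, adjusted p = 0.145). Their FDRs in the authors' deposited table are 0.0107 and 0.00205. The signal was low, and the nearest arrays of double and single heterozygotes were at 120 and 108. Acvr2a, a type II activin receptor gene, gave 254, 261 and 256 in the Sox9, 343, 226 and 334 in the Pdx1 and 332, 310 and 504 in the double heterozygotes. It lay above the Sox9 heterozygotes in 3 of 3 double-heterozygous arrays (0.54 ± 0.20, limma, adjusted p = 0.141) and overlapped the Pdx1 heterozygotes. Without replicate 3 the differences from the Sox9 and Pdx1 heterozygotes were 0.32 and 0.12, where the latter was 0.33 ± 0.20 with it.

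Bmpr2, which encodes the type II BMP receptor, was lower in the double heterozygotes. Its intensities were 6079, 5237 and 4732 in the Sox9, 5030, 5272 and 4666 in the Pdx1 and 4395, 4539 and 3910 in the double heterozygotes, all 3 below every other array. The log2 differences were -0.32 ± 0.11 against the Sox9 (limma, adjusted p = 0.122) and -0.22 ± 0.11 against the Pdx1 heterozygotes (limma, adjusted p = 0.331). Bmpr1a, a type I BMP receptor gene, differed by -0.08 (95% interval -0.30 to 0.15) and -0.09 (-0.31 to 0.14), the former 0.03 without Sox9 replicate 1. Tgfbr1, Tgfbr2 and Tgfbr3, which encode the TGF-beta receptors and betaglycan, lay between -0.26 and 0.14, and Acvr1, Acvr1c, Acvr2b, Acvrl1 and Bmpr1b between -0.07 and 0.23. Acvr2b, the other type II activin receptor gene, was at 2022, 1982 and 2032 in the Sox9 and at 2006, 1983 and 2662 in the double heterozygotes. Without replicate 3 its difference from the Sox9 heterozygotes changed sign, from 0.13 to -0.01.

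The antagonists and modulators had no member under 0.05 by limma's adjusted p or by the FDR of the authors' deposited table. Fst, which encodes the activin-binding protein follistatin, and the BMP antagonist genes Nog (noggin) and Grem1 (gremlin) had probes among the dimmest 20%. Fst gave 83, 166 and 140 in the Sox9, 88, 79 and 89 in the Pdx1 and 90, 92 and 109 in the double heterozygotes, so that replicate 1 of the Sox9 heterozygotes lay apart from the other 2 arrays of its group. Its differences were -0.37 ± 0.22, 0.18 ± 0.22 and, for Sox9 minus Pdx1 heterozygotes, 0.55 ± 0.22 (limma, adjusted p = 0.704). Without Sox9 replicate 1 the first and last were -0.66 and 0.84, and without Sox9 replicate 2 they were -0.16 and 0.34. Without replicate 3 of the double heterozygotes the second was 0.09. Chrd, which encodes the BMP antagonist chordin, gave 194, 188 and 212 in the Sox9 and 186, 168 and 171 in the double heterozygotes (-0.18 ± 0.08). Bambi, a pseudoreceptor gene, gave 4283, 4310 and 4317 in the Sox9 against 4571, 4716 and 4840 in the double heterozygotes (0.13 ± 0.07). Lefty1, a Nodal antagonist gene, and Bmp1, a protease gene of the tolloid family that cleaves chordin, differed by -0.03 ± 0.09 and 0.20 ± 0.09 from the Sox9 heterozygotes, that of Lefty1 0.04 without replicate 3 of the double heterozygotes.

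Of the Smad genes, Smad3, which transmits TGF-beta and activin signals, was higher in each double-heterozygous array than in any other array. Its intensities were 1758, 1945 and 2147 in the Sox9, 2114, 1982 and 2282 in the Pdx1 and 2305, 2444 and 3075 in the double heterozygotes. The log2 differences were 0.41 ± 0.12 (limma, adjusted p = 0.111) and 0.29 ± 0.12 (limma, adjusted p = 0.297), with FDRs of 0.00138 and 0.0128 in the authors' deposited table. Without replicate 3 of the double heterozygotes the second difference was 0.16. Smad2, its close relative, gave 1466, 1462 and 1415 in the Sox9, 1488, 1426 and 1470 in the Pdx1 and 1509, 1500 and 1530 in the double heterozygotes. Like Smad3, it was higher in each double-heterozygous array than in any other array, though by less. The Smad2 differences of 0.06 and 0.05 had the narrowest intervals of the Smads, -0.07 to 0.20 and -0.09 to 0.19.

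Smad4, the common partner, gave 1405, 1608 and 1554 in the Sox9, 1928, 1439 and 1842 in the Pdx1 and 1809, 1670 and 2192 in the double heterozygotes. It differed by 0.31 ± 0.13 from the Sox9 heterozygotes, 0.19 without replicate 3, and by 0.12 ± 0.13 from the Pdx1 heterozygotes, 0.01 without it. Smad6, an inhibitory Smad gene, was at 1185, 954 and 1561 in the double heterozygotes, against 863, 956 and 955 in the Sox9 and 1096, 985 and 1138 in the Pdx1 heterozygotes. Replicate 3 was again the highest. Its difference of 0.39 ± 0.16 from the Sox9 heterozygotes became 0.20 without it, and that of 0.17 ± 0.16 from the Pdx1 heterozygotes became -0.01. Smad7, the other inhibitory Smad gene, was at 964, 978 and 887 in the double heterozygotes, below the 1029, 1112 and 1136 of the Pdx1 heterozygotes (-0.21 ± 0.11, limma, adjusted p = 0.354). The Sox9 heterozygotes, at 1275, 1008 and 962, overlapped it (-0.19 ± 0.11, or -0.06 without Sox9 replicate 1). Of the BMP Smad genes, Smad1 differed by 0.06 ± 0.11 and -0.00 ± 0.11 and Smad5 by -0.08 ± 0.13 and -0.05 ± 0.13, all with 95% intervals that hold 0. Without replicate 3 of the double heterozygotes those of Smad1 were 0.0083 and -0.05, and without replicate 3 of the Pdx1 heterozygotes the second of Smad5 was 0.11.

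The 4 Id genes had differences of either sign in both comparisons of the double heterozygotes, and all 4 lay below 0 for Sox9 minus Pdx1 heterozygotes (Id1 -0.22, Id2 -0.54, Id3 -0.15 and Id4 -0.10), with 0 called by limma. Id2 had intensities of 2510, 2856 and 3173 in the Sox9, 4482, 4138 and 3738 in the Pdx1 and 4607, 3747 and 6488 in the double heterozygotes. As with Inhbb, each Sox9-heterozygous array lay below all 6 others, and the other 2 groups overlapped. The log2 difference was 0.77 ± 0.18 for double minus Sox9 (limma, adjusted p = 0.0954), with an FDR of 2.57e-05 in the authors' deposited table. It was 0.23 ± 0.18 for double minus Pdx1 and -0.54 ± 0.18 for Sox9 minus Pdx1 heterozygotes (limma, adjusted p = 0.588). Without replicate 3 of the double heterozygotes, the first difference was 0.55 and the second 0.02.

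Id4 was lower on average in the double heterozygotes, with intensities of 480, 418 and 393 against 560, 514 and 475 in the Sox9 and 503, 540 and 615 in the Pdx1 heterozygotes. It overlapped the Sox9 heterozygotes (-0.26 ± 0.11, limma, adjusted p = 0.160) and lay below every Pdx1-heterozygous array (-0.36 ± 0.11, limma, adjusted p = 0.192). Id1 was at 9918, 9572 and 8465 in the Sox9, 10916, 11097 and 10530 in the Pdx1 and 9913, 6617 and 8865 in the double heterozygotes. The Pdx1 heterozygotes lay above all other arrays, and the difference of the double heterozygotes from them was -0.38 ± 0.14 (limma, adjusted p = 0.248), or -0.21 without the array at 6617. Against the Sox9 heterozygotes it was -0.16 ± 0.14 and changed sign without that array, to 0.01. Id3 gave 3340, 3417 and 3615 in the Sox9, 3595, 4348 and 3640 in the Pdx1 and 4127, 3454 and 4356 in the double heterozygotes, with overlap in every comparison and differences of 0.20 ± 0.11, 0.04 ± 0.11 and -0.15 ± 0.11. Without replicate 3 of the double heterozygotes the first was 0.13 and the second -0.03.

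**Figure D3:**
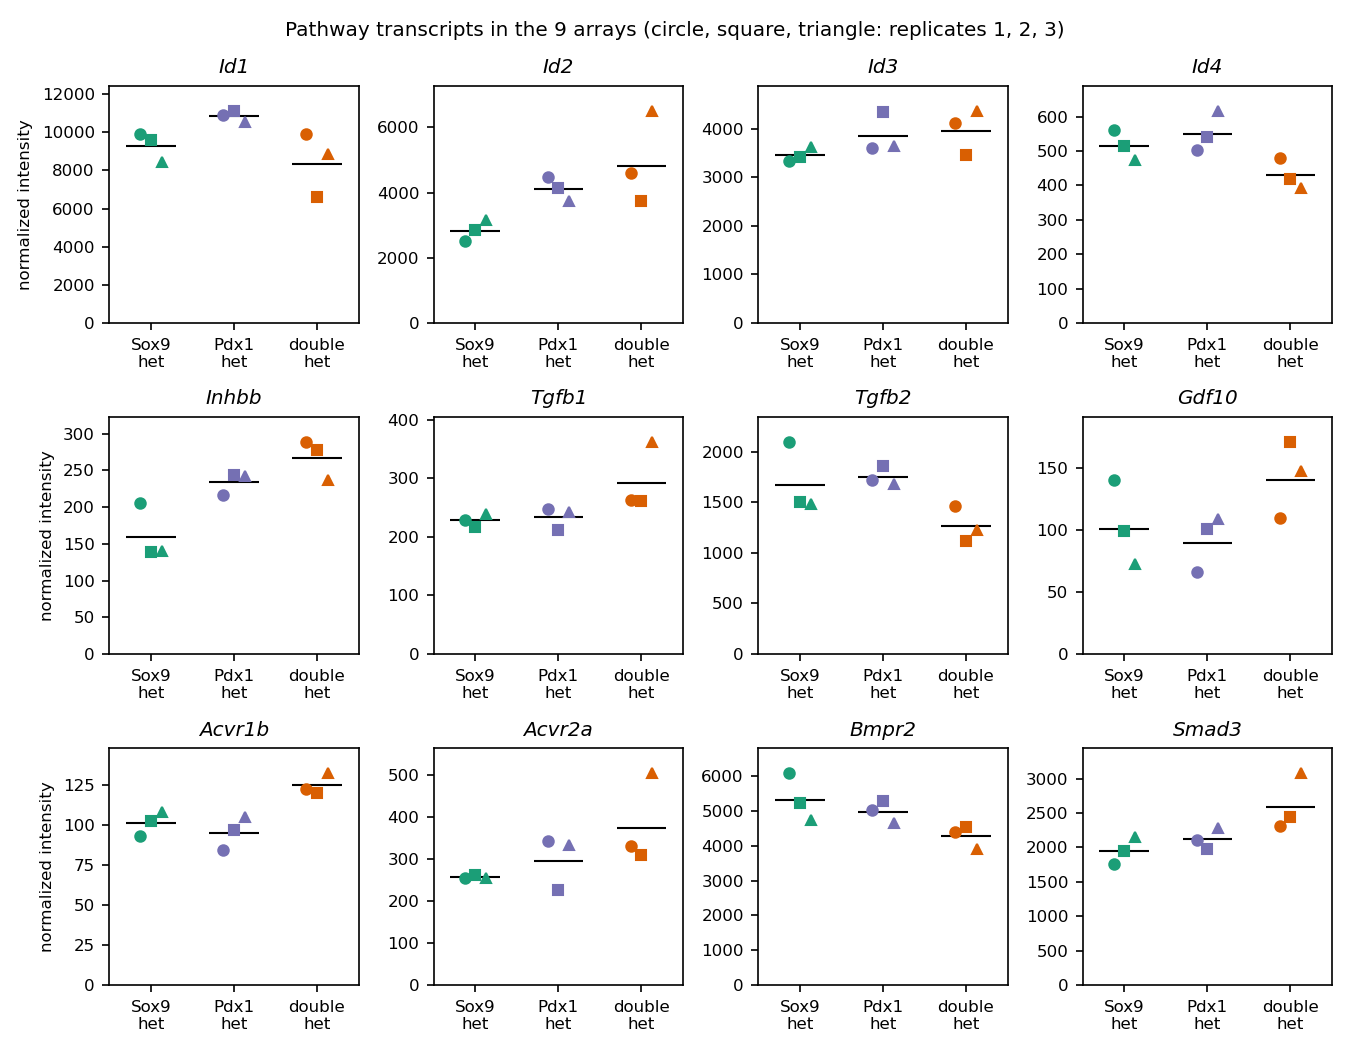
Normalized intensity (y axis, from 0) of 12 pathway genes in the 9 arrays, by genotype (x axis), with black bars at the geometric mean of each group of 3. Inhbb and Id2 are low in the Sox9 heterozygotes, Bmpr2 and Tgfb2 are low in the double heterozygotes, and the triangle of the double heterozygotes, replicate 3, lies highest for Id2, Tgfb1, Acvr2a and Smad3.

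Promoters of Id2 and Id4, which had the largest positive and the largest negative difference from the Sox9 heterozygotes among the 4 Id genes, are printed in the same way, with Id2 from the minus strand (chr12:25096093-25096342) and Id4 from the plus strand (chr13:48260866-48261115) of GRCm38.p6. 
Id2: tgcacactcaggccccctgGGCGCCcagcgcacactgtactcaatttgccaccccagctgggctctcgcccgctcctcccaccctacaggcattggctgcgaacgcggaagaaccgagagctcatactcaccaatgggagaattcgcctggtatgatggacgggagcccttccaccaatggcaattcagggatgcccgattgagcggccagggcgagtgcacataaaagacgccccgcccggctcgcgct
Id4: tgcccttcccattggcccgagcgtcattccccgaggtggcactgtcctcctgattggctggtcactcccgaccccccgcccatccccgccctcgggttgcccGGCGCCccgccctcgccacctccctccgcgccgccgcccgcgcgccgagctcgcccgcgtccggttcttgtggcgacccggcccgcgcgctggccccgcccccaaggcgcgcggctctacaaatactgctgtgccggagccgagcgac
Each window holds 1 GGCGCC, in capitals, which starts 231 bases upstream of the start in Id2 and 148 bases upstream in Id4. Neither holds the Smad box, the SOX core or the homeodomain core on either strand.

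Markers of the cell types in the tissue were set beside these values. The 12 epithelial markers had a mean log2 intensity of 12.45 to 12.59 in the Sox9, 12.49 to 12.73 in the Pdx1 and 12.62 to 12.94 in the double heterozygotes. In this mean the Sox9 and double heterozygotes did not overlap, while the Sox9 and Pdx1 heterozygotes did. Krt19, an epithelial keratin gene, was the 1 marker of any list that limma called between double and Sox9 heterozygotes (0.84 ± 0.13, adjusted p = 0.0341). The epithelial list was not uniform in that comparison. At an unadjusted p under 0.05, 4 of the 12 were higher (33.3%, against 14.2% of all genes) and 1 lower (8.33%, against 13.2%). Cdh1 (-0.22 ± 0.08) and Foxa2 (-0.13 ± 0.06) were lower in the double heterozygotes without overlap. The 10 neural and neural crest markers lay at 7.91 to 7.96 in the double heterozygotes, under 8.31 to 8.44 in the Sox9 and 8.15 to 8.35 in the Pdx1 heterozygotes. The 12 endocrine markers lay at 9.53 to 9.84, under 9.85 to 10.13 and 9.87 to 10.00. These 2 lists are lower in the double heterozygotes than in both other groups. The 20 mesenchymal markers lay at 9.548 to 9.623 in the Sox9, 9.581 to 9.699 in the Pdx1 and 9.578 to 9.580 in the double heterozygotes, with 0 called by limma's adjusted p in any comparison, though every double-heterozygous array lay below every Pdx1-heterozygous one. At an unadjusted p under 0.05, 4 were higher (20%, against 14.2% of all genes) and 1 lower (5%, against 13.2%) between double and Sox9 heterozygotes, 0 and 2 (10%, against 8.38%) between double and Pdx1, and 0 and 4 (20%, against 2.72%) between Sox9 and Pdx1 heterozygotes. The white blood cell list lay at 8.61 to 8.88 in the double, 8.85 to 8.97 in the Sox9 and 8.64 to 8.72 in the Pdx1 heterozygotes, and the endothelial, mesothelial and erythroid lists overlapped between double and Sox9 heterozygotes. The part of cell composition in the values of the pathway genes was not tested.

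**Figure D4:**
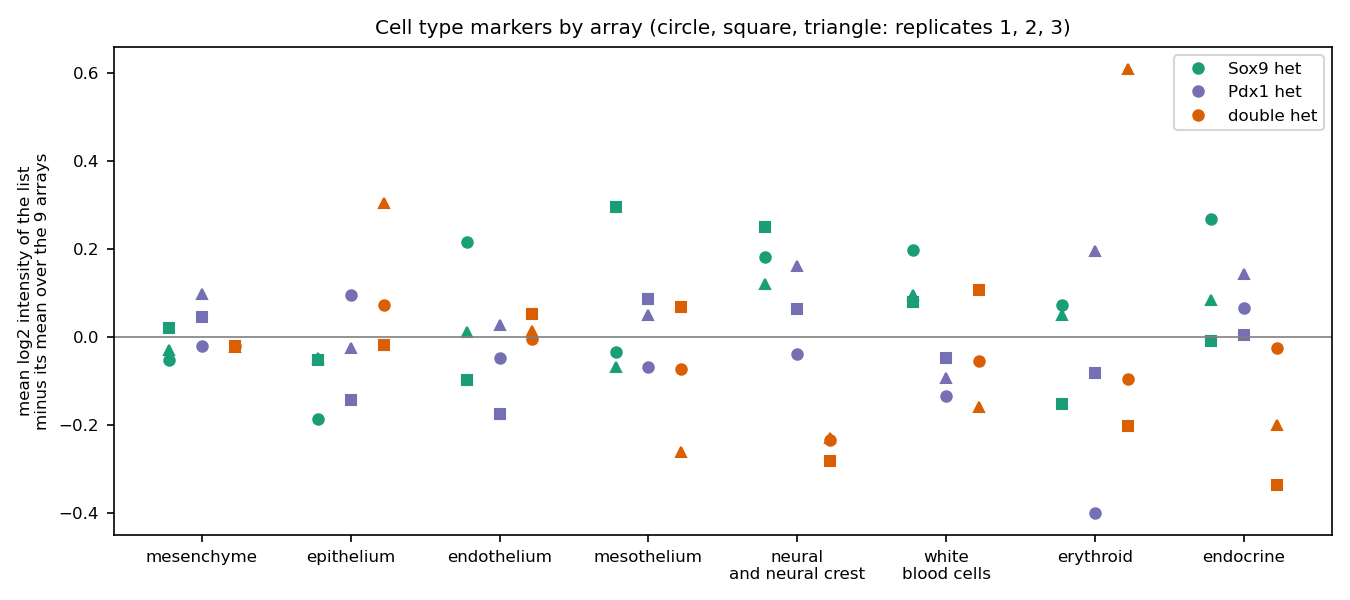
Mean log2 intensity of 8 marker lists on each array, minus the mean of that list over the 9 arrays (y axis), with colours for genotypes and symbols for replicates. The double heterozygotes lie below all other arrays for the neural and the endocrine list, and their replicate 3 lies highest for the epithelial and the erythroid list.

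Other genes of the pathway, which the symbol rule does not cover, were followed as a list of latent TGF-beta binding proteins, proteases, co-receptors, Smad regulators and targets. Of its 67 genes, 65 were measured, and limma called 0 of them in any comparison at an adjusted p of 0.05. Between double and Sox9 heterozygotes, 15 were higher (23.1%, against 14.2% of all genes) and 6 lower (9.23%, against 13.2%) at an unadjusted p under 0.05. Between double and Pdx1 heterozygotes there were 3 in each direction (4.62%, against 7.77% and 8.38%), and between Sox9 and Pdx1 heterozygotes 1 higher (1.54%, against 3.57%) and 2 lower (3.08%, against 2.72%). The list's median log2 difference was 0.05, 0.02 and -0.02 in the 3 comparisons. The FDR of the authors' deposited table lies under 0.05 for 10 higher (15.4%, against 12% of all genes) and 6 lower genes (9.23%, against 11.1%) of this list against the Sox9 heterozygotes. Against the Pdx1 heterozygotes it does so for 5 (7.69%, against 8.31%) and 2 (3.08%, against 8.94%), by the authors' deposited table. The members and this list were chosen with earlier results of these data known, so their counts are descriptions.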

How the data were processed

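Per the labels' protocols, RNA of 9 samples was amplified with an Agilent 1-colour kit, labelled with Cy3 and hybridised to arrays. The authors deposited a value table of whole-number intensities, 1 probe per gene, whose near-equal medians show that it was already normalized; how they were background-corrected and normalized is not stated in the labels or headers. The deposited gene table holds log2 ratios for both comparisons of the double heterozygotes, with FDR values (q-value or adjusted p-value), per the file headers. The submitters' processing notes name limma, without a version. Another 9 columns of values per array match no sample label and were not used. Probes were named through the probe column shared by both tables. The symbols are those of the deposited table.

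Intensities were log2-transformed without a pseudocount and fitted with limma 3.58.1 in R 4.3.3 (lmFit and eBayes, group means, all 9 samples, 6 residual and 3.39 prior degrees of freedom), with Benjamini-Hochberg adjustment over 18541 genes and a threshold of 0.05. The fit was tested on simulated data. No filter was applied, and no flags for background or saturation were used. The number of arrays limits the precision. Samples were grouped by genotype label, with the numbers in their titles as replicates. Same-numbered samples of different groups deviated together with correlations of -0.18 to 0.24, over 0.1 in 4 of 9 pairs. Differently numbered samples gave -0.29 to 0.22, over 0.1 in 4 of 18 pairs. These values do not exclude a pairing, and the numbers were not taken as pairs in the fit reported. Named genes were Id1 to Id4, with other members to be named if past the threshold, and Sox9 and Pdx1. Members with an FDR under 0.05 in the deposited table were added after their values were seen. The members and lists were chosen with earlier results of these data known. Alternatives were quantile and median scaling, a filter on dim probes, the replicate block, trended and robust priors, array weights, fits on 6 samples, other thresholds, a 1.5-fold minimum, leaving out each array, and the authors' FDR. Promoter windows come from RefSeq (GRCm38.p6) and were searched in Python 3.11.15.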

Additional observations from a re-analysis of the deposited data

How the results depend on the processing

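Quantile normalization, median centring, the filter on dim probes and trended and robust priors called 0 pathway genes in each comparison, as in the fit reported. The 6-sample fits, a 1.5-fold minimum and the replicate block did the same. Signs were followed for 32 log2 differences, those of Id1 to Id4 and of genes with a deposited FDR under 0.05. Quantile normalization, median centring and array weights reversed 0 of them. The dim-probe filter, the priors, the 6-sample fits and the replicate block leave a difference of group means unchanged, so those signs could not change. Array weights called 11 pathway genes between double and Sox9 heterozygotes, 0 between double and Pdx1 and 2 between Sox9 and Pdx1 heterozygotes, with 3516, 17 and 227 of all genes. The authors' FDR called 10 and 13 pathway genes and 4292 and 3199 of all genes in the first 2 comparisons, against 57 and 20 here. The weights ranged from 0.31 for double-heterozygous replicate 3 to 9.12 for Sox9 replicate 2, and their estimation gave a convergence warning. The cause of either gap was not tested.

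A threshold of 0.1 gave 2 pathway genes, Inhbb and Id2, in the first comparison and 463, 78 and 67 of all genes, and one of 0.01 gave 5, 2 and 5. The 6-sample fits gave 3 and 2 of all genes in the first and second comparison, the dim-probe filter 39 in the second, and the replicate block 18 in the third against 43; the block changed no call of a pathway gene. Leaving out 1 array gave 0 to 1 pathway genes and 4 to 68 of all genes in the first comparison, 1 to 9 in the second and 4 to 71 in the third, with fewer samples in each fit. Signs changed for Id1 against the Sox9 heterozygotes without double-heterozygous replicate 2 (from -0.28 to 0.0119 over the arrays left out), and for Id3 against the Pdx1 heterozygotes without Pdx1 replicate 1 (-0.0067) or double-heterozygous replicate 3 (from -0.0267 to 0.141 over the arrays left out). Signal over background limits the dim probes, 11 of 58.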
